A study of Mus musculus with 20 samples.

Results

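The 10 genes described here are *Apoe* and 9 genes of lipid efflux, lipid uptake and lipid storage (*Abca1*, *Abcg1*, *Nr1h3*, *Lpl*, *Cd36*, *Fabp4*, *Pparg*, *Plin2* and *Trem2*), chosen by name from the 33243 gene symbols of the table. All 10 passed the filter on low counts. They were measured by bulk RNA sequencing of macrophages from the dura of the skull, a class of CNS-associated macrophages (dCAMs). All mice were Ccr2creERT2/+ R26tdT/tdT animals kept under SPF conditions, in which tamoxifen switches on the red protein tdTomato (tdT) in the cells then expressing Ccr2. In every mouse, controls included, macrophages were depleted with the CSF1R inhibitor BLZ945 (200 mg/kg for 7 days), and tamoxifen (2 mg/day) followed, with its first dose on the final day of BLZ945 and the others 2 and 4 days later. At 8 weeks after depletion, 5 mice (3 female, 2 male) received PBS (CTL) and 5 mice (2 female, 3 male) received the bacterial cell wall component lipopolysaccharide (LPS, 2.5 mg/kg), and the dura was taken 12 h later. The labels give no age. From each mouse, CD45int CD11b+ CD206int-high cells were sorted by tdT, and the tdT+ and tdT− libraries made 20 in all, in 4 groups of 5. The tdT label reports Ccr2 expression around the tamoxifen doses and not origin itself, so that tdT− dCAMs may hold unlabeled cells of either origin.

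Macrophages take up lipoproteins and fatty acids, store surplus lipid as esters in lipid droplets and return cholesterol to the outside. ABCA1 and ABCG1 pump cholesterol onto acceptors such as apolipoprotein E, and their genes are classic targets of the liver X receptors (LXRs), of which *Nr1h3* encodes LXRα. Lipoprotein lipase (*Lpl*) frees fatty acids from lipoproteins, CD36 takes up fatty acids and oxidized lipoproteins, FABP4 carries fatty acids in the cytosol, PPARγ (*Pparg*) is a fatty acid-sensing nuclear receptor, perilipin 2 (*Plin2*) coats lipid droplets, and TREM2 is a surface receptor for lipids and apolipoproteins. LPS engages TLR4 and is known to turn macrophages toward droplet storage. In border macrophages *Apoe* is among the most abundant transcripts.

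In the annotation GENCODE M21 (GRCm38), the 10 genes are protein coding. *Apoe* lies at 7:19696109-19699188, *Abca1* at 4:53030787-53159895, *Plin2* at 4:86648386-86670060, *Cd36* at 5:17781690-17888801, *Trem2* at 17:48346401-48354147, *Lpl* at 8:68880491-68907448, *Nr1h3* at 2:91184061-91202834, *Abcg1* at 17:31057675-31117988, *Pparg* at 6:115360951-115490399 and *Fabp4* at 3:10204088-10208576. The build that the authors counted on was not settled by their methods, and these positions only locate the genes. Exons of *Nr1h3* shared 34 of 2515 bases with exons of Gm13783 on the same strand, and exons of the other 9 genes overlapped no other gene.

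The 250 bases before the RefSeq start (GRCm38.p6) are shown for 3 genes that the nuclear receptors LXR and PPAR are known to act on: *Abca1*, and *Plin2* and *Cd36*, whose RNA moved in opposite directions. Capitals in *Abca1* mark a match to the direct repeat DR4 (AGGTCA repeated after 4 bases of any kind, at most 3 mismatches, both strands) and a TATAAA box. In *Plin2* and *Cd36* they mark matches to the direct repeat DR1 (AGGTCA repeated after 1 base of any kind, at most 3 mismatches, both strands). All 3 sequences are from the minus strand and read 5′ to 3′.
*Abca1*, chr4:53159896-53160145: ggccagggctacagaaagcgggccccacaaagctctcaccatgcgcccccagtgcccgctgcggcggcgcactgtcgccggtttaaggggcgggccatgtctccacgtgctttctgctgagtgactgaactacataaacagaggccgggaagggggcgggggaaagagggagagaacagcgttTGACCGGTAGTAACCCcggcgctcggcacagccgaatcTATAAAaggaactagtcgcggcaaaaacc
*Plin2*, chr4:86670060-86670309: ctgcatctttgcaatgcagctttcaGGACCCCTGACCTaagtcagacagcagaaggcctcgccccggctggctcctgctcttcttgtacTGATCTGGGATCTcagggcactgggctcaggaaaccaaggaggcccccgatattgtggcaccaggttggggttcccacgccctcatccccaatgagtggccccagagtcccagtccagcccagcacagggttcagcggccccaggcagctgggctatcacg
*Cd36*, chr5:17835897-17836146: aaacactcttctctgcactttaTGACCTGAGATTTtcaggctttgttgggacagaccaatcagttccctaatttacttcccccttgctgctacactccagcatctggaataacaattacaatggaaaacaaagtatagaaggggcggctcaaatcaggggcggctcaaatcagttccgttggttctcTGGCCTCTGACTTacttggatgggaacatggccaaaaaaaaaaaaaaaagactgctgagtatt

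The DR4 match of *Abca1* spanned −67 to −52 relative to the start with 3 mismatches, and its TATAAA box spanned −29 to −24. *Plin2* held DR1 matches at −225 to −213 (2 mismatches) and at −161 to −149 (3 mismatches), and *Cd36* held them at −228 to −216 (3 mismatches) and at −63 to −51 (2 mismatches). Of 32851 promoter windows of this length, 18.5% held a DR4 match, 21.3% a DR1 match and 12.4% a TATAAA box. Of the 10 genes, 7 had a window. *Apoe* held a DR1 match at 1 of 3 starts (3 mismatches, −28 to −16), whereas *Trem2*, *Nr1h3* and *Pparg* held neither repeat. None of the 7 held the sterol element TCACNCCAC (1.05% of all windows). These matches describe letters and no binding was measured. *Lpl*, *Abcg1* and *Fabp4* had no entry.

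Library totals ranged from 6017650 to 12208203 counts in CTL and from 12073566 to 18925908 in LPS, so most LPS libraries were the more deeply sequenced. The macrophage markers were above the floor of 3 counts in every library (11 of 11 genes, among them *Mrc1*, which encodes CD206), and their summed level (CPM, counts per 1000000 after scaling by TMM) was 12134 to 22750 in tdT− CTL, 11723 to 14621 in tdT− LPS, 25457 to 28161 in tdT+ CTL and 13383 to 18317 in tdT+ LPS. After LPS 2 of the 11 rose and 3 fell in each population, among the latter *Mrc1* in both and *Csf1r* in tdT+ dCAMs (5992 ± 309 to 1416 ± 217 CPM). The part of this change in the falls of *Apoe*, *Trem2*, *Cd36* and *Lpl* was not tested. In bulk RNA, fewer cells of a type and less RNA per cell cannot be told apart. The tdT− CTL libraries of mice 174 and 179 reached the fewest genes (6671 and 6778 with at least 10 counts, against 7762 to 11987 in the others), and counts of genes are therefore also given without both mice. Of 5823 genes whose log2 CPM averaged 4 or more, 1.72% to 14.9% were at or under the floor in tdT− CTL libraries. The share was at most 0.635% in any other library. A 0 in tdT− CTL libraries may thus be a gene that was missed. Summed neutrophil markers were 46.8 to 195 CPM in CTL and 434 to 1087 CPM in LPS, with 4 of 7 markers above the floor in at least 1 library of each CTL group and 7 (tdT−) or 5 (tdT+) in LPS. Of the 7, *S100a8* and *Mmp8* rose in both populations and *Csf3r* in tdT− dCAMs (3 and 2 passed as higher). *S100a8* averaged 8.07 CPM in CTL and 291 CPM in LPS for tdT− dCAMs and 2.09 and 309 CPM for tdT+ dCAMs, and *Mmp8* rose at least 260-fold and 305-fold. *Ly6g* averaged 0.309 CPM in tdT− and 0.0617 CPM in tdT+ LPS dCAMs. *S100a9* went the other way with LPS, from 3.62 to 0.917 CPM in tdT− and from 4.33 to 0.236 CPM in tdT+ dCAMs. *Retnlg* averaged 54.0 and 216 CPM in tdT− CTL and LPS dCAMs, and 1.46 and 0.302 CPM in tdT+ dCAMs. As lower, 0 of the 7 passed in either population. Whether neutrophils had a part in the LPS results was not tested.

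After LPS, *Apoe*, *Lpl*, *Trem2* and *Cd36* fell and *Plin2* rose in both dCAM populations. In tdT− dCAMs, *Nr1h3* and *Abca1* also passed the threshold as higher. To pass, a gene needed a log2 fold change beyond 1 in either direction, with p under 0.05 in edgeR's quasi-likelihood test after Benjamini-Hochberg adjustment. In tdT− dCAMs, 3 of the 10 passed as higher and 4 as lower, 7 in all, where 11.5% of 16632 genes passed (7.2% higher and 4.27% lower). For tdT+ dCAMs, 1 passed as higher and 4 as lower, 5 in all, against a background of 5.89% (3.37% higher and 2.52% lower). CTL and LPS libraries did not overlap for 7 genes in tdT− dCAMs (background 12.6%) and for 8 genes in tdT+ dCAMs (background 17.8%). The median log2 fold change over the 10 genes was −0.92 in tdT− and −1.002 in tdT+ dCAMs, beside 0.022 and 0.0084 over all genes tested. With every library thinned to 6017650 counts, 7 and 5 genes passed (12.7% and 6.28% of all genes). Without CTL mice 174 and 179, 7 and 6 passed (16.7% and 8.1% of all genes). At an unadjusted p under 0.05 there were 7 and 6 genes, and the added gene in tdT+ dCAMs was *Fabp4*.

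**Figure D1:**
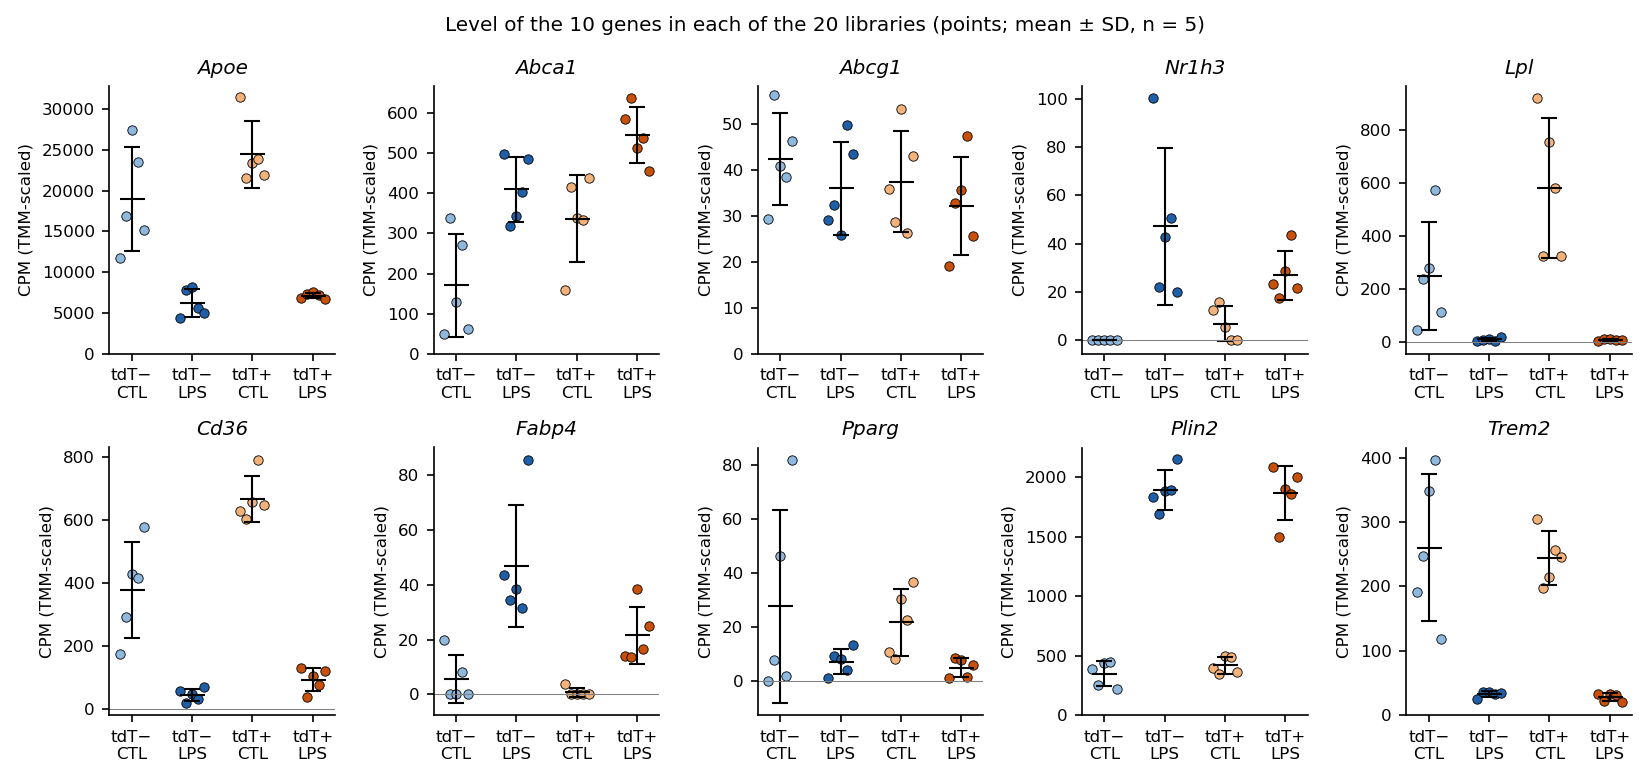
Level of each of the 10 genes in CPM (linear axis) in the 20 libraries; each point is a library, the horizontal bar is the mean and the whiskers are the SD of 5 libraries. *Plin2* reaches at least 1494 CPM in all LPS libraries and at most 498 CPM in all CTL libraries, whereas *Apoe*, *Lpl*, *Trem2* and *Cd36* lie lower in all LPS libraries than in any CTL library of the same population.

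*Apoe* was the most abundant of the 10 genes and took 1.16% to 3.22% of all counts in CTL libraries and 0.453% to 0.808% in LPS libraries. In tdT− CTL dCAMs its level was 11734, 16933, 27451, 23441 and 15116 CPM in mice 174, 175, 177, 178 and 179. In tdT− LPS dCAMs it was 4365, 7790, 8182, 5613 and 4978 CPM in mice 54, 56, 59, 60 and 61. The groups did not overlap, and *Apoe* fell by 1.61 ± 0.20 on the log2 scale (SE, adjusted p = 9.55e-06), which is 3.06-fold. In tdT+ dCAMs, CTL libraries held 31471, 21547, 23391, 23812 and 21886 CPM and LPS libraries 6792, 7261, 7539, 7169 and 6722 CPM in the same order of mice. The fall was 1.78 ± 0.20 on the log2 scale (adjusted p = 2.39e-06), with all 5 LPS libraries within a narrow range (7097 ± 340 CPM, SD, n = 5). With mouse as a replicate block, limma-voom gave adjusted p = 0.967 in tdT− and 0.986 in tdT+ dCAMs, with precision weights of *Apoe* from 371 to 1.88e+11. Without those weights, limma on log2 CPM with the same block gave adjusted p = 4.94e-06 and 1.49e-06.

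Of the cholesterol pumps, only *Abca1* passed, and only in tdT− dCAMs. *Abca1*, which loads cholesterol onto lipid-poor apolipoproteins, had 49.8, 339, 130, 271 and 62.0 CPM in tdT− CTL libraries and 499, 319, 343, 405 and 485 CPM in tdT− LPS libraries. The groups overlapped at the CTL library of mouse 175, and mice 174 and 179 were the lowest. *Abca1* rose by 1.27 ± 0.40 on the log2 scale (adjusted p = 0.0421), a call that was lost in 13 of 26 alternatives, with adjusted p from 0.00422 to 0.424 over all of them. Without CTL mice 174 and 179 the log2 fold change was 0.72 (adjusted p = 0.0583). In tdT+ dCAMs, *Abca1* had 159, 416, 338, 335 and 438 CPM in CTL and 587, 639, 514, 539 and 455 CPM in LPS. These groups did not overlap, but the log2 fold change of 0.70 ± 0.40 did not pass (adjusted p = 0.362).

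*Abcg1*, the partner pump that serves mature lipoproteins, stayed between 19.1 and 56.3 CPM in all 20 libraries. Its groups averaged 42.3 ± 9.98 CPM in tdT− CTL, 35.99 ± 10.1 in tdT− LPS, 37.4 ± 11.02 in tdT+ CTL and 32.1 ± 10.7 in tdT+ LPS (SD, n = 5). The log2 fold change with LPS was −0.23 in tdT− dCAMs (95% interval −1.04 to 0.57, adjusted p = 0.738) and −0.22 in tdT+ dCAMs (−1.03 to 0.59, adjusted p = 0.882). The log2 ratio of *Abca1* to *Abcg1* within a library was 1.65 ± 1.06 in CTL and 3.52 ± 0.41 in LPS for tdT− dCAMs, 1.88 apart (p = 0.00794 in an exact permutation test, two-sided, and 0.0159 adjusted over 2 ratios). In tdT+ dCAMs it was 3.13 ± 0.72 in CTL and 4.14 ± 0.53 in LPS, a difference of 1.01 (p = 0.0397 and adjusted p = 0.0397, exact permutation test). The smallest p that 252 permutations allow is 0.00794.

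*Nr1h3*, which encodes LXRα, was at 0 counts in all 5 tdT− CTL libraries. In tdT− LPS libraries it had 100, 22.2, 42.8, 50.5 and 19.8 CPM. Set against the floor of 3 counts per library, it rose at least 125-fold (adjusted p = 0.000311). In these CTL libraries, lack of *Nr1h3* RNA and lack of detection cannot be told apart. In tdT+ dCAMs the CTL libraries held 12.5, 15.9, 5.53, 0.105 and 0 CPM and the LPS libraries 23.2, 17.6, 28.8, 43.5 and 21.8 CPM. The tdT+ groups did not overlap, but the log2 fold change of 1.99 ± 1.10 did not pass (adjusted p = 0.351), whereas it passed in limma-voom with mouse as a block (4.12, adjusted p = 0.0207) and in limma on log2 CPM with the block (3.52, adjusted p = 0.0376).

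*Lpl*, the lipase that feeds lipoprotein fatty acids to the cell, fell the furthest of the genes that passed in both populations. It had 42.6, 236, 277, 574 and 111 CPM in tdT− CTL libraries and 3.65, 5.97, 11.2, 1.72 and 18.0 CPM in tdT− LPS libraries. The fall was 4.93 ± 0.77 on the log2 scale, or 30.5-fold (adjusted p = 0.000162). Among tdT+ libraries it had 919, 322, 754, 582 and 325 CPM in CTL and 0.604, 10.1, 8.07, 7.04 and 5.79 CPM in LPS, a fall of 6.52 ± 0.83 on the log2 scale (adjusted p = 1.71e-05). The highest LPS library of either population stayed below the lowest CTL library.

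*Cd36*, the scavenger receptor and fatty acid translocase, followed the same direction. Its level was 174, 292, 430, 417 and 580 CPM in tdT− CTL and 56.8, 19.4, 47.5, 30.3 and 69.8 CPM in tdT− LPS libraries, a fall of 3.08 ± 0.38 on the log2 scale (adjusted p = 1.21e-05). Among tdT+ libraries it was 631, 603, 659, 793 and 649 CPM in CTL and 130, 37.3, 106, 74.7 and 120 CPM in LPS, a fall of 2.83 ± 0.38 (adjusted p = 2.78e-05). All LPS libraries lay below all CTL libraries. Endothelial cells also express *Cd36* and *Fabp4*, and summed endothelial markers (7 genes, 3 to 6 above the floor in a group) ranged from 1.31 to 89.7 CPM in CTL and from 6.82 to 64.8 CPM in LPS, with *Cldn5* at 0 in every LPS library and *Pecam1*, *Kdr* and *Esam* at 0 in every tdT+ CTL library. After LPS *Egfl7* fell in both populations (adjusted p = 0.00656 and 0.0108), and *Pecam1* rose in tdT+ dCAMs from 0 to 11.5 ± 7.02 CPM (adjusted p = 0.000649) and averaged 4.03 and 25.8 CPM in tdT− CTL and LPS dCAMs. Their part in these results was not tested.

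*Fabp4* and *Pparg* were scarce and uneven. *Fabp4* had 19.7, 0, 0, 8.02 and 0 CPM in tdT− CTL and 43.6, 34.4, 38.6, 31.7 and 85.6 CPM in tdT− LPS libraries. The tdT+ libraries had 3.73 CPM in the CTL library of mouse 174, 0 in the other 4 and 14.0, 13.7, 38.4, 16.6 and 25.1 CPM in LPS. The groups did not overlap in either population, but the log2 fold changes of 3.08 ± 1.60 (adjusted p = 0.200) and 4.91 ± 1.77 (adjusted p = 0.119) did not pass. With mouse as a block they passed, at 6.32 (adjusted p = 0.00212) and 7.15 (adjusted p = 0.000640) in limma-voom and at 5.48 (adjusted p = 0.00292) and 5.93 (adjusted p = 0.00283) in limma on log2 CPM. Without CTL mouse 174 they also passed in edgeR (adjusted p = 0.0493 and 0.00401), with the 4 remaining tdT+ CTL libraries all at 0. The adipocyte markers (7 genes) summed to at most 1.46 CPM in any library, and *Adipoq*, *Cfd* and *Adrb3* were at 0 in all 20.

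*Pparg* spanned 0.152 to 81.9 CPM among tdT− CTL libraries (median 8.02) and 1.26 to 13.3 CPM in tdT− LPS (median 8.42). Its tdT+ levels spanned 8.28 to 36.7 CPM in CTL (median 22.8) and 1.13 to 8.58 CPM in LPS (median 6.07). The groups overlapped in both populations, and the log2 fold changes were −1.92 ± 1.06 (adjusted p = 0.225) and −2.10 ± 1.07 (adjusted p = 0.287). The tdT− value was −0.95 without CTL mouse 179, the library with 81.9 CPM, and −0.30 in limma-voom with mouse as a block.

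*Plin2*, the droplet coat protein, had the smallest p of the 10 genes in either population. Its level was 385, 250, 440, 445 and 222 CPM in tdT− CTL libraries and 1837, 1692, 1887, 1889 and 2154 CPM in tdT− LPS libraries. *Plin2* rose by 2.44 ± 0.19 on the log2 scale, or 5.43-fold (adjusted p = 2.07e-08). The tdT+ libraries had 398, 343, 498, 491 and 362 CPM in CTL and 2085, 1494, 1900, 1856 and 2001 CPM in LPS, a rise of 2.16 ± 0.19, or 4.46-fold (adjusted p = 7.49e-08). Libraries of each group were close to each other and far from those of the other treatment. Its call held in all 26 alternatives of each comparison.

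*Trem2*, the lipid-sensing receptor of the lipid-associated macrophage state, had 191, 247, 348, 397 and 117 CPM in tdT− CTL libraries and 25.3, 36.4, 35.8, 32.6 and 34.5 CPM in tdT− LPS libraries. It fell by 2.98 ± 0.31 on the log2 scale, or 7.90-fold (adjusted p = 1.03e-06). The tdT+ libraries had 304, 197, 214, 257 and 246 CPM in CTL and 33.2, 22.4, 33.1, 31.8 and 19.98 CPM in LPS, a fall of 3.12 ± 0.31, or 8.67-fold (adjusted p = 5.72e-07). The 10 LPS libraries all lay between 19.98 and 36.4 CPM, below every CTL library.

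**Figure D2:**
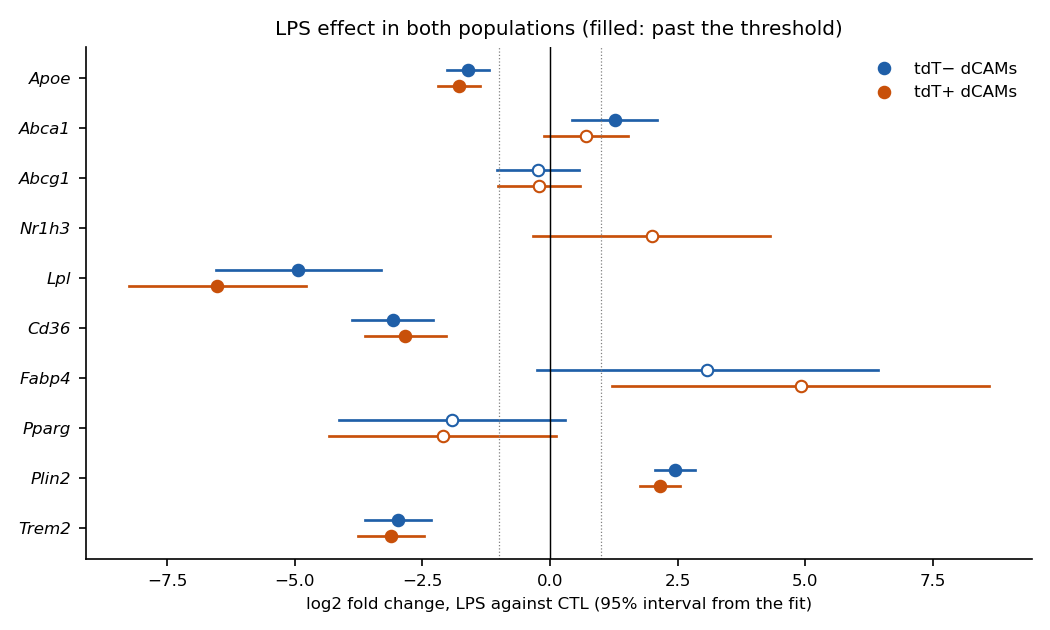
Log2 fold change of LPS against CTL (x axis) for each gene in tdT− (blue) and tdT+ (orange) dCAMs, with 95% intervals from the edgeR fit; filled points passed the threshold, dotted lines mark a log2 fold change of −1 and 1, and *Nr1h3* in tdT− dCAMs is left out because its CTL libraries were all at 0. *Plin2* lies at 2.44 and 2.16 and *Lpl* at −4.93 and −6.52, and *Abcg1* lies close to 0 in both populations.

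Compared per length, since reads scale with transcript size, *Apoe* stood far above the other 9 genes in every group, with a mean of 8856 CPM per kb in tdT− CTL, 2893 in tdT− LPS, 11422 in tdT+ CTL and 3319 in tdT+ LPS dCAMs. In tdT+ CTL dCAMs the next levels per kb were *Cd36* (186), *Plin2* (119), *Lpl* (55.4), *Trem2* (49.3) and *Abca1* (32.5). In tdT+ LPS dCAMs *Plin2* followed *Apoe* at 532 CPM per kb, ahead of *Abca1* (52.8), *Cd36* (26.1) and *Nr1h3* (10.7), whereas *Lpl* was at 0.604. The order in tdT− LPS dCAMs was *Plin2* (539), *Abca1* (39.6), *Nr1h3* (18.7), *Cd36* (12.5) and *Fabp4* (10.4). The length used was that of the merged exons of all annotated transcripts, which for *Fabp4* is 4489 bases, its whole gene span. A merged length can exceed that of the transcript expressed, so these orders hold for this length only.

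Whether the populations differ was asked by comparing the tdT+ and tdT− libraries. The edgeR values have no mouse term and are unpaired, and the counts of mice use the pairs. In CTL mice only *Nr1h3* passed the threshold (background 4.28%, of which 3.01% were higher), as higher in tdT+ dCAMs. Its tdT− libraries were all at 0, and the tdT+ mean of 6.81 ± 7.22 CPM (SD, n = 5) was at least 18.1-fold above the floor, while 2 of the 5 tdT+ libraries were at 0 or 1 count. A gene missed in tdT− CTL libraries would give the same pattern. The adjusted p was 0.00497, and the call was lost in 5 of 27 alternatives, among them edgeR's newer dispersion method (adjusted p = 0.0971) and the fit of the CTL libraries alone (adjusted p = 0.309).

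*Cd36*, *Abca1*, *Lpl* and *Plin2* were higher in the tdT+ library in 5 of 5 CTL mice (background 9.46% for 1 sign in all 5 mice), but none passed. *Cd36* averaged 667 ± 73.5 CPM in tdT+ and 379 ± 153 in tdT− dCAMs, groups that did not overlap (background 3.78%), with a log2 fold change of 0.82 ± 0.36 (adjusted p = 0.174). *Abca1* averaged 337 ± 110 and 170 ± 129 CPM, and its log2 fold change of 0.98 ± 0.40 (adjusted p = 0.151) became 1.29 (adjusted p = 0.0445) in limma on log2 CPM with mouse as a block and 1.46 (adjusted p = 0.0306) without CTL mouse 175. In that block fit the median over all genes was 0.46 and 10.5% of genes passed, beside −0.0052 and 4.28%. *Lpl* averaged 580 ± 263 and 248 ± 205 CPM (log2 fold change 1.23 ± 0.66, adjusted p = 0.276). For *Apoe* the log2 fold change was 0.37 ± 0.19 (adjusted p = 0.255) and for *Trem2* −0.09 ± 0.29 (95% interval −0.69 to 0.50, adjusted p = 0.930). *Fabp4* passed as lower in tdT+ dCAMs without CTL mouse 174 (adjusted p = 0.0486), beside −2.95 ± 1.64 (adjusted p = 0.291) with it. Summed macrophage markers were 12134 to 22750 CPM in tdT− CTL and 25457 to 28161 CPM in tdT+ CTL libraries. Summed monocyte markers (5 genes, 5 and 3 above the floor) were 548 to 1095 CPM in tdT− CTL and 160 to 467 CPM in tdT+ CTL libraries. Summed fibroblast markers (6 genes) ranged from 10.9 to 4667 CPM in tdT− CTL (median 315) and from 141 to 365 CPM in tdT+ CTL libraries (median 201). In LPS libraries they ranged from 73.6 to 415 CPM. The 4667 CPM belonged to the tdT− CTL library of mouse 179. Of its group, that library had the highest *Cd36* (580 CPM) and *Pparg* (81.9 CPM) and the lowest *Plin2* (222 CPM) and *Trem2* (117 CPM). The part of these markers in the population differences or in the LPS results was not tested.

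**Figure D3:**
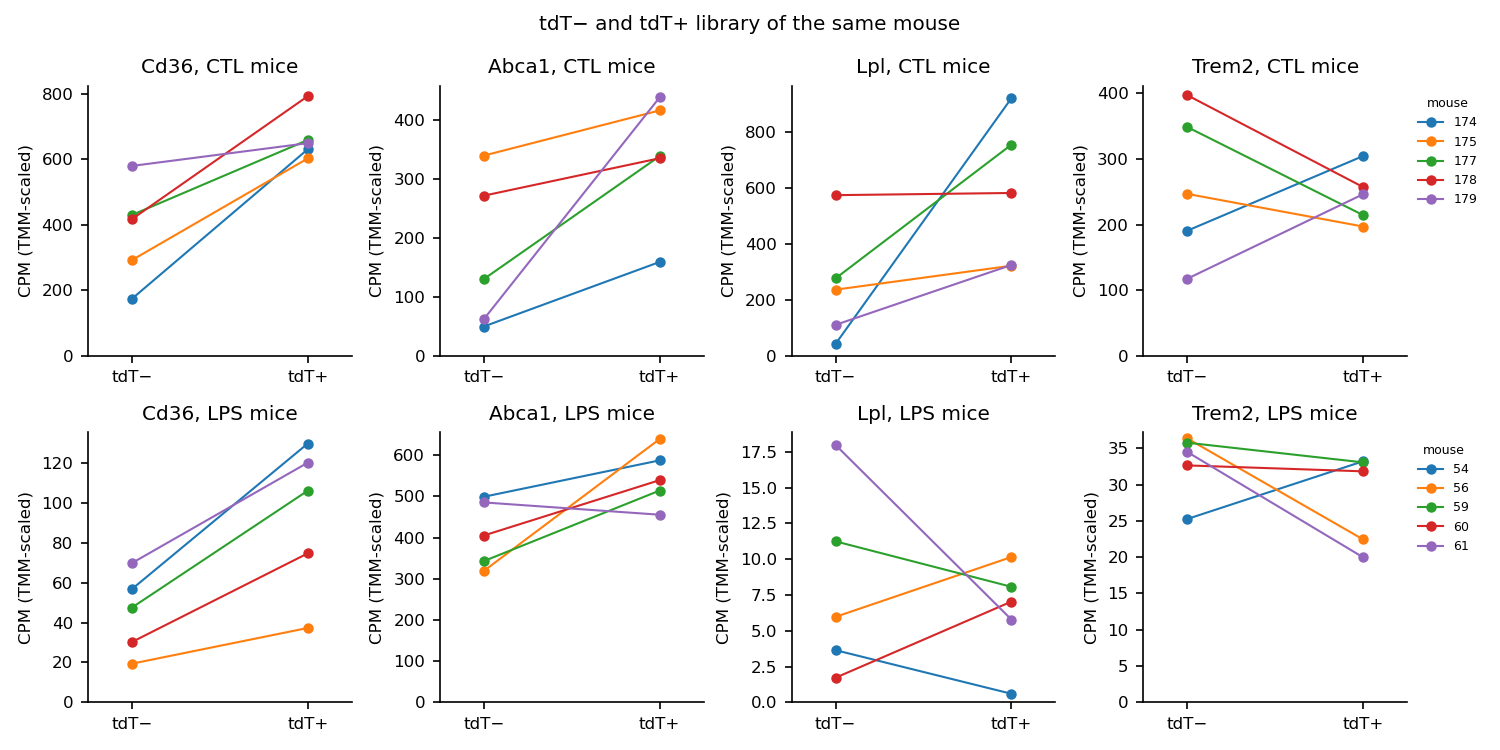
CPM (linear axis from 0) of *Cd36*, *Abca1*, *Lpl* and *Trem2* in the tdT− and tdT+ library of each mouse, joined by a line, for CTL mice (top) and LPS mice (bottom). The *Cd36* lines rise in 5 of 5 CTL mice and in 5 of 5 LPS mice, and the *Trem2* lines run in both directions.

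In LPS mice, 0 of the 10 genes passed between the populations in edgeR (background 0.0301%) and in DESeq2 (0.361%). The count was also 0 in limma-voom with quality weights (0.824%) and with mouse as a block (0.132%). Groups were apart for 0 genes (background 1.79%), and 1 gene, *Cd36*, had an unadjusted p under 0.05 in edgeR, ranking 71 of 16632 genes by p. *Cd36* was again higher in the tdT+ library in 5 of 5 mice (93.6 ± 37.7 against 44.7 ± 20.2 CPM, log2 fold change 1.06 ± 0.36, edgeR adjusted p = 0.913). *Pparg* and *Fabp4* were lower in the tdT+ library in 5 of 5 mice (background 9.9%), with log2 fold changes of −0.53 ± 1.03 and −1.12 ± 1.497 (adjusted p = 1 for both). The *Plin2* means were close, 1867 ± 227 (tdT+) and 1892 ± 167 CPM (tdT−), and the 95% interval of its log2 fold change ran from −0.39 to 0.35.

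A test of whether LPS acted unequally on the populations passed for *Nr1h3* alone, as lower (adjusted p = 0.0205; background 1.26%, with 0.0902% higher and 1.17% lower), whose tdT− CTL group was at 0. That call was lost on leaving out any 1 of the 5 LPS mice (adjusted p from 0.0725 to 0.0916) and in limma on log2 CPM with mouse as a block (adjusted p = 0.180). For *Apoe* the LPS effect in tdT+ minus that in tdT− dCAMs was −0.17 (95% interval −0.73 to 0.40), for *Plin2* −0.28 (−0.81 to 0.25), for *Trem2* −0.13 (−0.98 to 0.71) and for *Cd36* 0.25 (−0.79 to 1.29). For *Lpl* it was −1.58 (−3.54 to 0.37).

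Other genes of these pathways were taken from 5 lists with 80 tested genes in all. In tdT− dCAMs 12 of the 80 rose and 5 fell with LPS, and in tdT+ dCAMs 7 rose and 8 fell. These shares stand beside the backgrounds of 7.2% and 4.27%, and of 3.37% and 2.52%. The difference between the populations in the LPS effect passed for 1 of the 80 (*Cst7*), so that a gene named for 1 population is not thereby shown to differ between them.

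Among 17 genes of LXR action and sterol efflux, 0 passed as higher in either population, and 1 fell in tdT− and 3 fell in tdT+ dCAMs. CTL and LPS libraries did not overlap for 5 and 6 genes in either direction (backgrounds 12.6% and 17.8%). In the other lists this held for 5 and 8 of 18 genes (droplet turnover), 5 and 5 of 17 (uptake), 0 and 0 of 10 (PPAR network) and 7 and 10 of 18 (TREM2 signaling). *Cyp27a1*, which makes the LXR ligand 27-hydroxycholesterol, fell from 146 ± 57.3 to 4.53 ± 3.72 CPM in tdT− (log2 fold change −5.01 ± 0.58, adjusted p = 4.74e-06) and from 216 ± 49.0 to 6.25 ± 3.11 CPM in tdT+ dCAMs (−5.11 ± 0.58, adjusted p = 3.36e-06). *Pltp*, a phospholipid transfer protein and LXR target, fell by 1.34 ± 0.16 in tdT+ dCAMs (adjusted p = 5.12e-06). In CTL mice *Rxra*, the partner receptor of LXRs and PPARs, was higher in tdT+ than in tdT− dCAMs (101 ± 30.9 against 20.3 ± 13.5 CPM, log2 fold change 2.32 ± 0.54, adjusted p = 0.0146). The median log2 fold change with LPS was 0.27 in tdT− (0 with 2 genes set at their bound) and 0.11 in tdT+ dCAMs (0.20 with 1 gene at its bound).

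Of 18 genes of lipid droplet turnover, 2 rose and 1 fell in tdT− dCAMs, and 2 rose and 2 fell in tdT+ dCAMs (medians 0.36 and 0.35). *Hilpda*, a droplet protein that inhibits adipose triglyceride lipase, rose from 64.4 ± 34.1 to 364 ± 78.8 CPM in tdT− (2.50 ± 0.32, adjusted p = 1.61e-05) and from 35.1 ± 4.75 to 325 ± 60.8 CPM in tdT+ dCAMs (3.21 ± 0.33, adjusted p = 7.81e-07). Of the triglyceride synthesis genes, *Gpat4* rose in tdT− dCAMs (19.2 ± 15.0 to 110 ± 15.7 CPM, adjusted p = 0.0182) and *Dgat2* rose in tdT+ dCAMs (0.608 ± 1.36 to 71.2 ± 24.2 CPM, adjusted p = 0.0204). *Lipa*, the lysosomal lipase for cholesteryl esters, fell by 1.253 ± 0.39 in tdT− (adjusted p = 0.0385) and by 2.27 ± 0.40 in tdT+ dCAMs (adjusted p = 0.000699). *Lpin1*, a phosphatidate phosphatase, fell by 3.50 ± 0.97 in tdT+ dCAMs (adjusted p = 0.0312).

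Of 17 genes of fatty acid and lipoprotein uptake, 5 rose and 1 fell in tdT− dCAMs, and 2 rose and 1 fell in tdT+ dCAMs (medians 0.96 and 0.60, the latter 0.55 with 1 gene at its bound). *Msr1*, which encodes scavenger receptor A, rose from 188 ± 114 to 1348 ± 299 CPM in tdT− (2.84 ± 0.38, adjusted p = 3.23e-05) and from 357 ± 111 to 1687 ± 296 CPM in tdT+ dCAMs (2.24 ± 0.38, adjusted p = 0.000374). It moved opposite to the scavenger receptor *Cd36*. *Scarb1*, which encodes the HDL receptor SR-BI, fell by 1.43 ± 0.37 (adjusted p = 0.0131) and 1.56 ± 0.37 (adjusted p = 0.0111). *Fabp5* rose in tdT− dCAMs (15.5 ± 9.01 to 77.3 ± 25.1 CPM, adjusted p = 0.00528), and *Acsl5*, an acyl-CoA synthetase, rose in tdT+ dCAMs (161 ± 36.8 to 408 ± 16.1 CPM, adjusted p = 0.000178). In CTL mice *Fabp7* passed as higher in tdT+ dCAMs, where it averaged 1.51 ± 2.30 CPM against 0 in all tdT− libraries (adjusted p = 0.0416). It was above the floor in 2 tdT+ CTL libraries, and a gene missed in tdT− CTL libraries would give the same pattern.

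In the PPAR network (10 genes), 1 gene rose in tdT− dCAMs and 0 of 10 passed in tdT+ dCAMs (medians 0.74 and −0.06). The gene was *Pdk4*, a PPAR target that restrains pyruvate oxidation, at or under the floor in tdT− CTL dCAMs. Its tdT− LPS mean of 5.22 ± 4.93 CPM was at least 13.9-fold above that floor (adjusted p = 0.0379). However, only 3 of 5 tdT− LPS libraries were above the floor, the lowest was at 0, and the groups overlapped. In tdT+ dCAMs *Pdk4* averaged 4.31 CPM in CTL and 7.28 CPM in LPS.

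Of 18 genes of TREM2 signaling and the lipid-associated macrophage state, 4 rose and 2 fell in tdT− dCAMs, and 3 rose and 2 fell in tdT+ dCAMs (medians 0.12 and 0.34). *Clec7a*, which encodes the β-glucan receptor Dectin-1, fell with *Trem2*, from 322 ± 153 to 26.9 ± 8.36 CPM in tdT− (−3.58 ± 0.43, adjusted p = 8.80e-06) and from 220 ± 64.9 to 14.1 ± 9.07 CPM in tdT+ dCAMs (−3.97 ± 0.44, adjusted p = 2.55e-06). *Lgals3* (galectin-3) fell by 1.90 ± 0.38 in tdT− dCAMs (adjusted p = 0.00190), and the tetraspanin *Cd9* fell by 1.68 ± 0.43 in tdT+ dCAMs (adjusted p = 0.0195). The amplifying receptor *Trem1* rose at least 327-fold in tdT− dCAMs, from 0 in all CTL libraries to 123 ± 37.7 CPM (adjusted p = 0.000121), and rose from 0.807 ± 1.80 to 105 ± 17.5 CPM in tdT+ dCAMs (adjusted p = 0.00208). Neutrophils express it too. *Cst7* (cystatin F) rose at least 91.9-fold in tdT− dCAMs (adjusted p = 0.000188) and averaged 1.29 and 11.7 CPM in tdT+ CTL and LPS dCAMs. *Gpnmb* rose at least 37.2-fold in tdT− (adjusted p = 0.000445) and 26.3-fold in tdT+ dCAMs (adjusted p = 0.000531). *Treml2* rose from 0.237 to 15.8 CPM in tdT− (adjusted p = 0.00165) and at least 35.6-fold in tdT+ dCAMs (adjusted p = 0.000120). In CTL mice *Lgals3* was lower in tdT+ dCAMs (110 ± 18.1 against 438 ± 248 CPM, adjusted p = 0.00350), *Cst7* passed as higher (1.29 ± 1.38 CPM against 0, adjusted p = 0.0152) and *Treml2* passed as lower, at 0.237 ± 0.277 CPM in tdT− dCAMs and 0 in all tdT+ libraries (adjusted p = 0.0419), both means under the floor, so that no fold is given. The LPS effect on *Cst7* was the smaller in tdT+ dCAMs (adjusted p = 0.0321). However, *Cst7* was at 0 in every tdT− CTL library and above the floor in 3 tdT+ CTL libraries. A gene missed in tdT− CTL libraries would give the same pattern in both of these *Cst7* comparisons.

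**Figure D4:**
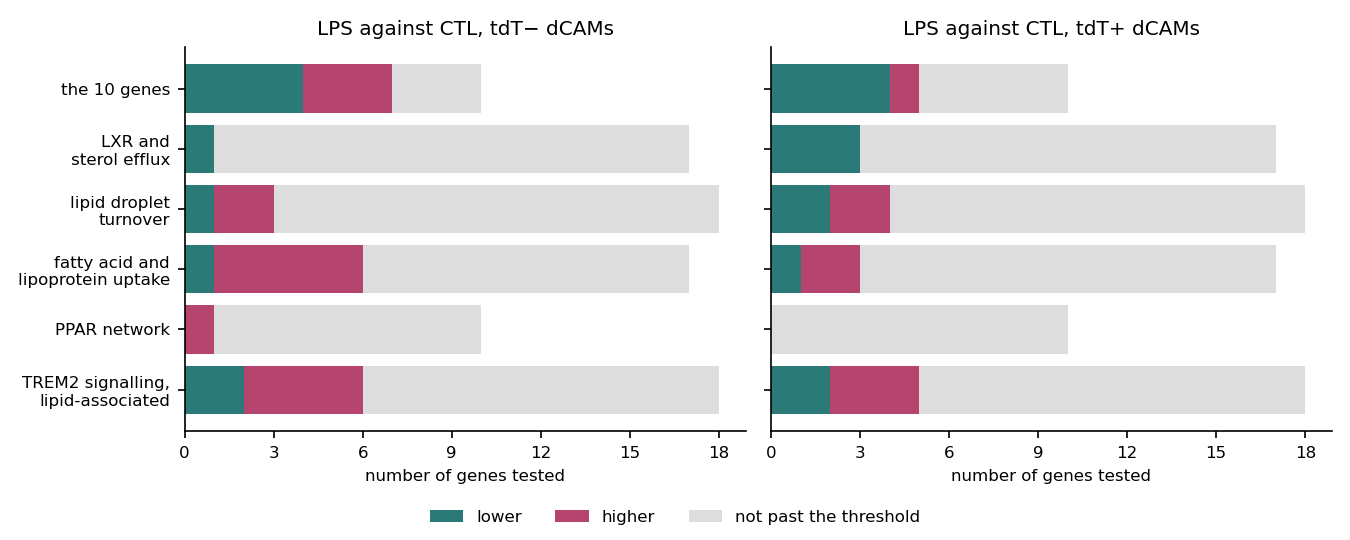
Number of tested genes (x axis) that passed as lower (teal), passed as higher (magenta) or did not pass (grey) with LPS, for the 10 genes and 5 pathway lists in tdT− (left) and tdT+ (right) dCAMs. The 10 genes show 4 lower in each panel and 3 or 1 higher.

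The genes whose log2 CPM most resembled that of each leading gene over the 20 libraries were sought in 5822 others whose log2 CPM averaged 4 or more. All libraries share the 4 groups, and r follows mainly the step from CTL to LPS, so it is given as a description. *Apoe* ran with *Selenop* (r = 0.966), *Itm2b* (0.965) and *Ptgs1* (0.956), and *Trem2* with *Rgs10* (0.979) and *Trim47* (0.970). *Plin2* ran with *Pirb* (0.982), *Ms4a6d* (0.979) and *Lcn2* (0.976), and *Abca1* with *Fkbp5* (0.951), *Mapk1ip1l* (0.950) and *Synj1* (0.949).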

How the data were processed

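Gene counts of 20 dCAM libraries from 10 mice were analyzed. The deposited table holds unscaled whole counts. The authors made these counts with the aligner STAR 2.7.11a and the counter featureCounts (2.0.6 per the submitters' processing notes). The strand setting of the counting was not given in the sources used here. Libraries were made from picogram amounts of RNA by PCR without molecular identifiers, and the floor of 3 counts covers counting error only. The intervals are derived from the fit and include the spread between libraries of a group.

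Genes with a total under 10 counts were removed, which left 16632. Counts were scaled by TMM and fitted with the quasi-likelihood test of edgeR 4.0.16 in R 4.3.3 over all 20 libraries, with 1 mean per group and no covariate (common biological coefficient of variation 1.13). P-values were Benjamini-Hochberg adjusted over all genes tested, and the threshold was 0.05 with an absolute log2 fold change over 1. SE was the absolute log2 fold change divided by the square root of the quasi-likelihood F. The 95% intervals were built from that SE with t quantiles, so both are derived values and approximate. A group with every library at or under 3 counts was set at that floor, and the fold against it is a bound. Log2 CPM had a prior count of 2. CPM per kb used the merged exon length of GENCODE M21.

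Each tdT+ library is paired with the tdT− library of the same animal through the mouse number. The deviations of paired libraries from their group means correlated across genes at r = −0.00460 to 0.0461 in CTL mice and 0.228 to 0.449 in LPS mice. Alternatives used limma 3.58.1 and DESeq2 1.42.0, other scalings and filters, each mouse left out, sex and mouse as terms, and, chosen after seeing the data, edgeR's newer dispersion method, the data without CTL mice 174 and 179, thinned counts and limma on log2 CPM with mouse as a block.

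The 10 genes, the lists and the tests were chosen with earlier results of these data known. Genes named beside the 10 are, for each list and comparison, up to 2 per direction with the smallest p past the threshold, the 3 genes most correlated with *Apoe*, *Abca1*, *Plin2* and *Trem2* (1 of these is not reported here), and markers. Promoter sequences are from RefSeq (GRCm38.p6), and their mismatch allowance was set after the windows had been searched.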

Additional observations from a re-analysis of the deposited data

Results flagged for a closer look

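A library far from its group was looked for in 39 groups of 5 values, and chance flags about 1 in 20 groups. In tdT+ CTL dCAMs the *Apoe* level of mouse 174 was 31471 CPM, above 21547 to 23812 CPM in the other 4 libraries. *Fabp4* in tdT− LPS dCAMs reached 85.6 CPM in mouse 61, above 31.7 to 43.6 CPM in the others. *Fabp4* in tdT+ CTL dCAMs was 3.73 CPM in mouse 174 and 0 in the others.

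The LPS effect on *Nr1h3* differed between the populations by a fitted log2 value of −10.07 (tdT+ minus tdT−, edgeR adjusted p = 0.0205). Its group means were 0 and 47.1 CPM in tdT− CTL and LPS dCAMs and 6.81 and 26.99 CPM in tdT+ CTL and LPS dCAMs. With tdT− CTL at 0, which may be a lack of detection, the fitted value depends on the prior count and is no bound.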

How the results depend on the processing

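In the LPS comparisons no gene changed direction in any of 260 values per population (26 alternatives for 10 genes). With LPS, 7 genes passed in tdT− dCAMs (11.5% of all genes), 2 in female mice alone (1.46%) and 6 to 8 on leaving out a mouse (8.15% to 15.7%). In tdT+ dCAMs 5 passed (5.89% of all genes), with 8 in limma-voom with quality weights (19%), 3 in female mice alone (1.04%) and 5 to 6 on leaving out a mouse (4.25% to 6.58%). The female fits hold 3 CTL and 2 LPS mice. There *Apoe* (adjusted p = 0.0558), *Abca1*, *Lpl*, *Cd36* and *Nr1h3* lost their calls in tdT− dCAMs, and *Lpl* and *Cd36* in tdT+ dCAMs. Between the populations in CTL mice 1 gene passed (4.28% of all genes). The count was 0 in limma-voom with quality weights (2.22%), the CTL libraries alone (0.0486%) and edgeR's newer method (7.32%). It was also 0 in female (0.0202%) or male mice alone (10.4%). It was 2 without CTL mice 174 and 179 (6.06%) and in limma on log2 CPM with the replicate block (10.5%). Leaving out a mouse gave 1 to 2, with 2 without CTL mouse 174 (4.69%) or 175 (8.22%). In LPS mice the count was 0 in all 27 alternatives, in which at most 0.824% of all genes passed. For the difference of LPS effects 1 gene passed (1.26% of all genes). The count was 0 in limma-voom with quality weights (1.32%), edgeR's newer method (0.926%) and limma on log2 CPM with the block (1.45%). It was also 0 in female (0%) or male mice alone (5.85%). Leaving out a mouse gave 0 to 1 (0.386% to 3.89%). The causes were not tested. With mouse as a replicate block the counts were 7 (limma-voom) and 8 (log2 CPM) for LPS in tdT− dCAMs, where 27.2% and 22.1% of all genes passed, and 6 and 7 in tdT+ dCAMs (9.45% and 8.12%). The median log2 fold change over all genes was 0.76 and 0.71 in tdT− and 0.13 and 0.17 in tdT+ dCAMs in these fits, beside 0.022 and 0.0084 in edgeR. The block changed the calls of *Apoe*, *Fabp4*, *Nr1h3* and *Abca1* given beside their results and no other call.

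Log2 fold changes that did not pass turned sign as follows. For tdT+ against tdT− dCAMs in CTL mice, these were *Apoe* (−0.099), *Abcg1* (0.013) and *Pparg* (0.15) in male mice, *Trem2* in female mice (0.44), *Trem2* (0.012) and *Pparg* (1.12) in edgeR with mouse as a fixed term, *Trem2* (0.018) and *Pparg* (1.33) in limma on log2 CPM with the block, and *Pparg* in limma-voom with the block (1.49), with quality weights (1.36) and without mice 174 and 179 (0.14). Leaving out a mouse gave −0.35 to 0.14 for *Abcg1*, −0.28 to 0.15 for *Trem2* and −0.60 to 0.35 for *Pparg*. In LPS mice these were *Lpl* in female mice (0.17; −0.68 to 0.19 on leaving out a mouse) and *Plin2* with quality weights (0.0039), with the block in limma-voom (0.033) and in female mice (0.034), with −0.053 to 0.014 on leaving out a mouse. For the difference of LPS effects these were *Apoe* (0.28) and *Trem2* (0.37) in male mice and 0.17 and 0.33 without mice 174 and 179, *Pparg* in female mice (0.58), and *Abcg1* with RLE size factors (−0.0048), library totals (−0.059), DESeq2 (−0.0044), no filter (−0.0026) and male mice (−0.15). Leaving out a mouse gave −0.36 to 0.064 for *Apoe*, −0.28 to 0.19 for *Abcg1*, −0.37 to 0.055 for *Trem2* and −0.88 to 0.089 for *Pparg*.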
